A study of Mus musculus with 4 samples.

Results

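Rad21 binding was described across the clustered protocadherin genes Pcdha, Pcdhb and Pcdhg and their flanks in mouse neural stem cells (NSCs) and astrocytes (ASTs). Rad21 is a core subunit of the cohesin ring, and ChIP-seq was used to map it. The members were the Rad21 peaks that start between 36900000 and 38200000 on chromosome 18 (mm9). There were 29 such peaks of 18405 in NSCs and 21 of 16157 in ASTs, 50 of 34562 in all. The rule itself uses position alone, although the interval and its stretches were chosen with earlier results of these data known.

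NSCs were clonal cultures derived from mouse embryonic stem cells and grown in serum-free medium with EGF and FGF. ASTs were the post-mitotic progeny of NSCs, obtained with BMP4 and grown with BMP, FGF and laminin. The labels give no further treatment for either, and both were fixed with formaldehyde before precipitation with the same Rad21 antibody. Each cell type was represented by 1 Rad21 library and 1 input library, 4 libraries in all, which leaves every difference between NSCs and ASTs without a measure of replicate spread, and no p-value was computed. Cell identity could not be checked against markers, since the lists hold Rad21 peaks alone. The cultures are bulk populations, in which weak binding in every cell and strong binding in a few cells cannot be told apart.

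Clustered protocadherins are cell-surface adhesion proteins, best known for giving single neurons a molecular identity through the combination of isoforms that each cell expresses. In the alpha and gamma clusters, each variable exon has its own promoter and is spliced to constant exons that the whole cluster shares, whereas each beta gene is a single-exon unit of its own. The clusters are textbook targets of CTCF and cohesin, which bind at many of the variable promoters and at distant enhancers, and loops between these sites take part in promoter choice. The reference gene table, which is of build GRCm38 and was used for names and order alone, lists 14 alpha, 22 beta and 22 gamma genes, 1 of the last a pseudogene. They follow each other as alpha (Pcdha1 to Pcdhac2), beta (Pcdhb1 to Pcdhb22) and gamma (Pcdhga1 to Pcdhgc5). Zmat2, Hars2, Hars and Dnd1 are the nearest protein-coding neighbours on the alpha side. Diaph1, which encodes a formin, and Hdac3, which encodes a histone deacetylase, follow on the gamma side, and Taf7 and Slc25a2 lie among the protocadherins.

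A gene table of the files' own build was not used, so no peak was assigned to a gene. A central interval from 37100000 to 38000000 was set at round positions from general knowledge of where the clusters lie in mm9. It was divided into stretches of 300 kb that follow the order of the clusters, named here the alpha (from 37100000), beta (from 37400000) and gamma (from 37700000) stretches. The flanks are the 200 kb before (proximal) and the 200 kb after (distal). These limits are approximate and were not checked against an annotation.

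Cohesin sites were dense in the interval in both cell types. NSCs had 22.3 peaks per Mb there (14.9 to 32.0, exact Poisson 95% interval, counting error only) against 6.44 per Mb over the rest of chromosome 18. The density was 3.47 times that of the rest (2.30 to 5.03, exact conditional 95% interval). ASTs had 16.2 per Mb (10 to 24.7) against 6.08, a ratio of 2.66 (1.63 to 4.10). Of 2017 windows of 1.3 Mb tiled over the genome, 98.7% held fewer NSC peaks than the interval and 95.1% held fewer AST peaks. Median windows held 8 NSC and 7 AST peaks, with a maximum of 38 and 32. The interval therefore ranked among the fuller stretches of its length in both lists without being the fullest in either.

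**Figure D1:**
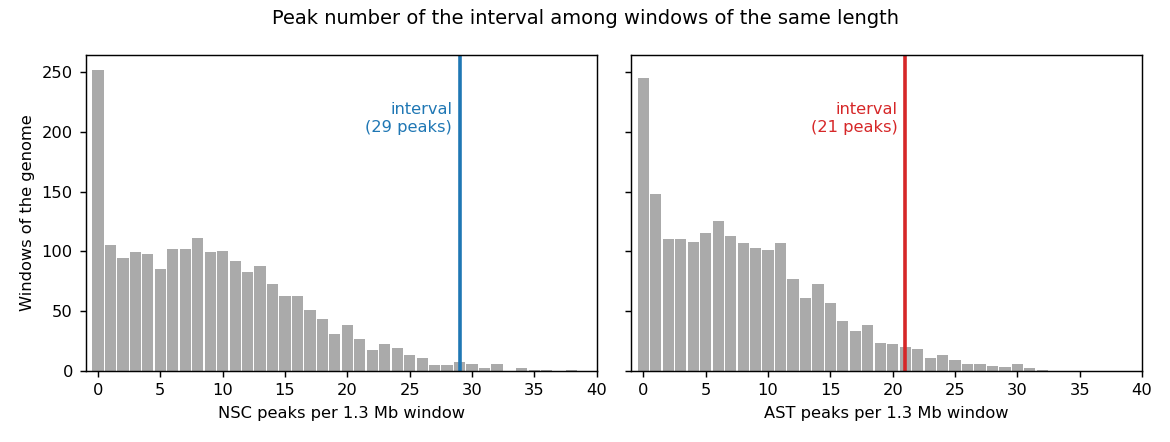
Number of 1.3 Mb windows of the genome (vertical axis) by the number of NSC (left) or AST (right) Rad21 peaks they hold (horizontal axis), with the protocadherin interval drawn as a vertical line. The interval holds 29 NSC and 21 AST peaks, and 26 and 99 of the 2017 windows hold as many or more.

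With the limits used here, peaks inside the clusters were about as dense as in both flanks combined, but this depended on where the limits were set. The central 900 kb held 20 NSC peaks, or 22.2 per Mb, against 9 in the 400 kb of flanks, or 22.5 per Mb, which is a ratio of 0.988 (0.430 to 2.46). In ASTs it held 15 peaks, 16.7 per Mb, against 6 in the flanks, 15 per Mb, a ratio of 1.11 (0.407 to 3.50). These intervals allow differences of over 2 times either way. With other limits of the central interval or wider flanks, the ratio ran from 0.80 to 1.58 in NSCs and from 0.643 to 1.73 in ASTs, so that its direction turned. The flanks themselves were unlike each other. The proximal flank held 1 NSC peak and no AST peak, while the distal flank, on the gamma side, held 8 NSC peaks (40 per Mb, 17.3 to 78.8) and 6 AST peaks (30.0 per Mb, 11.0 to 65.3).

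Within the central interval, the beta stretch held the most NSC peaks. There were 7 NSC peaks in the alpha stretch, 10 in the beta stretch and 3 in the gamma stretch, and 6, 6 and 3 AST peaks. The NSC density of the beta stretch was 3.33 times that of the gamma stretch (0.858 to 18.8), which counting error alone spans. The fullest bin of 100 kb, from 38000000 to 38100000 in the distal flank, held 6 NSC and 4 AST peaks, and 3 of the 13 bins held no peak in either list. These empty bins began at 37000000, 37200000 and 37700000.

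**Figure D2:**
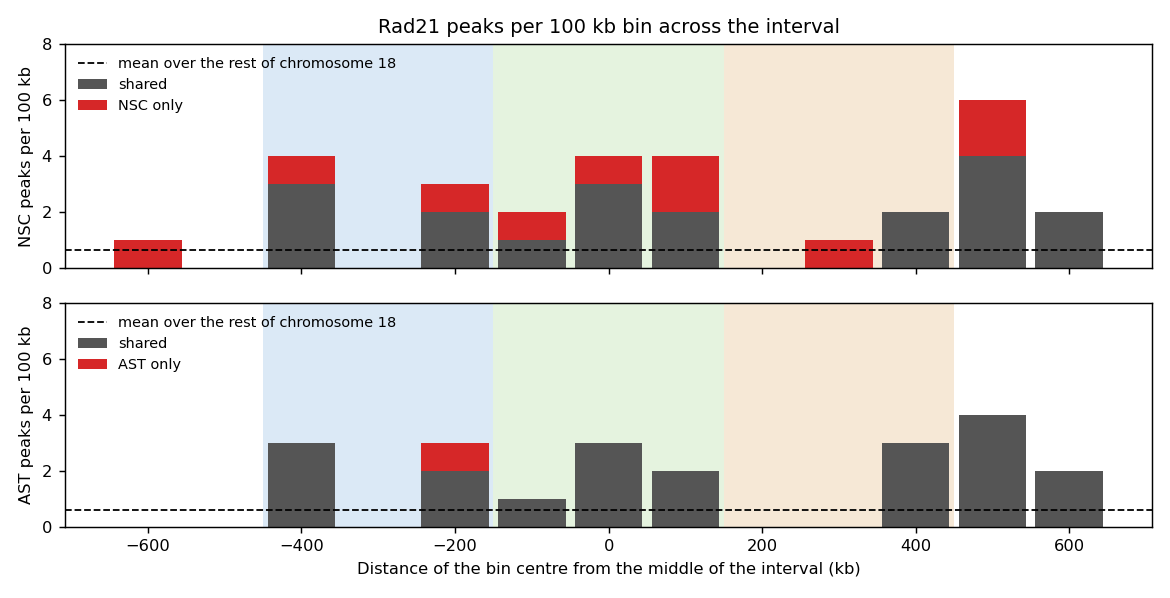
Rad21 peaks per 100 kb bin (vertical axis) by distance of the bin centre from the middle of the interval in kb (horizontal axis), NSC above and AST below, with shared peaks in grey, peaks of 1 list in red and the alpha, beta and gamma stretches shaded blue, green and orange. The dashed line is the mean over the rest of chromosome 18, and the fullest bin, 500 kb from the middle, holds 6 NSC and 4 AST peaks.

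Adjacent peaks lay closer together here than in the lists as a whole. In the interval, the median distance from start to start was 26.5 kb over 28 NSC gaps, against 58.9 kb in the whole list. It was 33.1 kb over 20 AST gaps, against 68.1 kb. The longest gap crossed the start of the gamma stretch in both lists. In NSCs it ran from the peak at 37656476 to that at 37879891, 223 kb, longer than 85.9% of the gaps of the list. In ASTs it ran from 37637329 to 37920942, 284 kb, longer than 87.5% of them. At the other extreme, 2 NSC gaps and 3 AST gaps were under 1 kb, or 7.14% and 15% of the gaps, against 2.87% and 1.87% in the whole lists.

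Most sites were found in both cell types. The 50 peaks formed 30 separate sites, of which 19 were in both lists, 10 in NSCs only and 1 in ASTs only. Over the whole lists, 6351 of 18405 NSC peaks and 4083 of 16157 AST peaks were in 1 list only. An overlap of 1 bp or more between peaks of both lists made them shared. In NSCs 19 of the 29 peaks were shared (65.5%, 45.7 to 82.1, Clopper-Pearson 95% interval), and the share over the whole NSC list was also 65.5%. In ASTs 20 of the 21 were shared (95.2%, 76.2 to 99.9), against 74.7% over the whole AST list. Stronger peaks are shared more often, so the members were also set beside peaks of like fold enrichment. With each list divided into 4 bins by fold enrichment, the bins' own shares would give 18.6 shared NSC members and 15.6 shared AST members. The NSC count was thus at the level of its list and the AST count above it. The AST excess was small in number and depended on the setting: in 5 of 6 alternatives the interval of the member share included that of the list, although the member share was the higher in all 6.

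**Figure D3:**
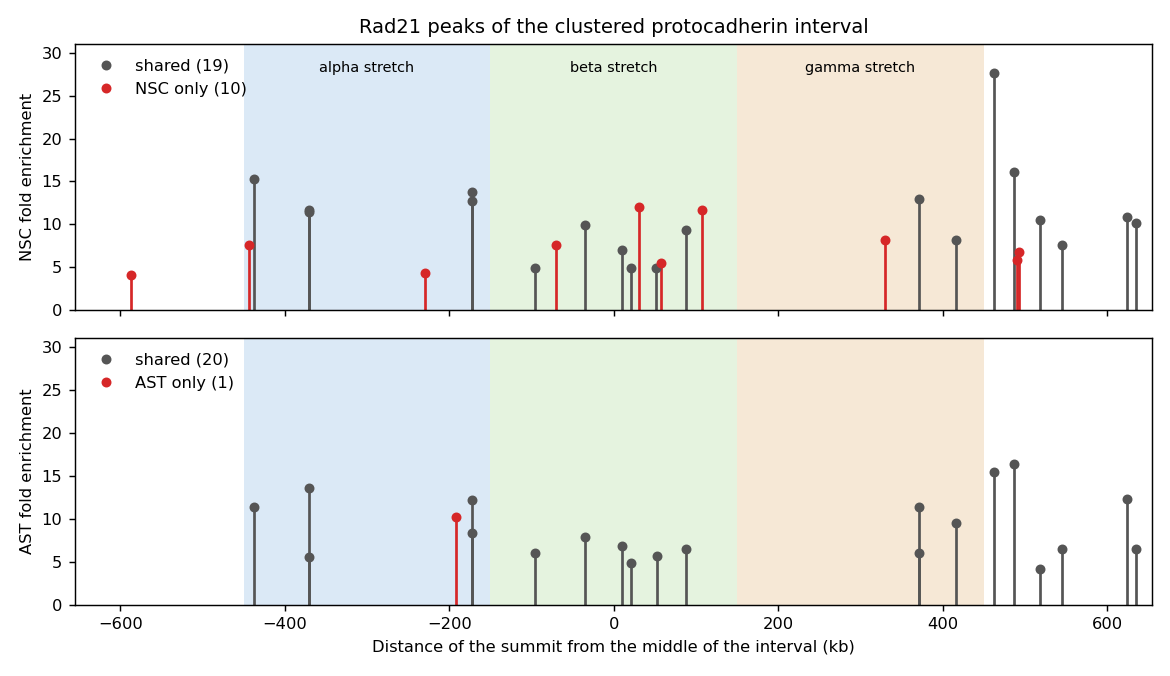
Fold enrichment (vertical axis) of each Rad21 peak in NSCs (above) and ASTs (below) by distance of its summit from the middle of the interval in kb (horizontal axis), with shared peaks in grey and peaks of 1 list in red over the shaded alpha, beta and gamma stretches. Red marks 10 NSC peaks and 1 AST peak, and the highest NSC peak (27.6) stands at 462 kb, just past the gamma stretch.

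Member peaks were of ordinary strength for their lists. Fold enrichment is the pile-up of fragments at the summit over the caller's local background, and it is relative to its own library, so values of the 2 lists are set side by side and not subtracted. The median was 9.39 in NSCs (quartiles 6.75 and 11.7) against 8.66 in the whole list, and 7.92 in ASTs (6.08 and 11.4) against 7.98. Of the members, 15 of 29 NSC peaks and 10 of 21 AST peaks lay above the median of their list. Median widths were 217 bp in NSCs and 189 bp in ASTs, against 232 and 204 bp in the whole lists. The local background, recovered from fold enrichment and p, was at the usual level of the list (3.22 fragments in NSCs and 2.63 in ASTs) at most members. It was over 1.1 times that level at 4 NSC members (13.8%, against 26.8% of the list) and 6 AST members (28.6%, against 33.8%). The members rested on 14 to 94 fragments at the summit in NSCs and 15 to 61 in ASTs.

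The strongest cohesin sites of the interval lay just beyond the gamma stretch, in the distal flank. The highest NSC peak ran from 38011703 to 38012216 (514 bp) and had a fold enrichment of 27.6, on 94 fragments (76.0 to 115, Poisson 95% interval). It ranked 13 among the 605 NSC peaks of chromosome 18, above 98.2% of the whole list. Its AST partner, at 38011778 to 38012162 (385 bp), had a fold enrichment of 15.45 on 61 fragments, over a background 1.5 times the usual. By fold enrichment it was the second strongest AST member. The strongest was the next site, at 38037021 to 38037309 (289 bp), with a fold enrichment of 16.35 on 43 fragments. The NSC peak there, at 38036990 to 38037348 (359 bp), had 16.1 and was second in NSCs. The same 2 sites thus led the members of both lists by fold enrichment, in opposite order. By fragments at the summit the order was the same in both, 94 and 55 in NSCs and 61 and 43 in ASTs.

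The rest of the distal flank held 6 NSC and 4 AST peaks. NSC-only peaks followed at 38039914 to 38040097 (184 bp, fold enrichment 5.90) and 38043278 to 38043424 (147 bp, 6.75), 2.60 and 5.97 kb from the nearest AST peak. The site at 38067801 to 38068066 stood much higher by fold enrichment in its NSC list than in its AST list. Its NSC peak (266 bp, 10.6) stood above 61.6% of the list, while its AST peak, at 38067852 to 38067987 (136 bp), had 4.16 and stood above 2.81%. Fragments at the summit were near the list median in both, 36 against 34.0 in NSCs and 23 against 24.0 in ASTs. The AST background there was 2.10 times the usual, the highest of any member, and its part in the low AST fold enrichment was not tested. The site at 38095285 to 38095457 (173 bp, 7.63) had an AST partner at 38095243 to 38095396 (154 bp, 6.46). Of the last pair of sites, the first had an NSC peak at 38173447 to 38173676 (230 bp, 10.9) and an AST peak at 38173449 to 38173685 (237 bp, 12.3). The second had an NSC peak at 38184596 to 38184822 (227 bp, 10.1) and an AST peak at 38184613 to 38184770 (158 bp, 6.46). Every AST peak of the distal flank was therefore shared.

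The alpha stretch held strong shared sites in 3 places. The NSC peak nearest its start, at 37105617 to 37105817 (201 bp, fold enrichment 7.63), was NSC-only. The shared site that followed lay at 37112116 to 37112397 in NSCs (282 bp, 15.25) and at 37112119 to 37112358 in ASTs (240 bp, 11.4), with summits 7 bp apart. It was the third strongest NSC member. A pair of shared peaks came next, with starts 0.649 kb apart in NSCs. The first of the pair lay at 37179604 to 37179930 in NSCs (327 bp, 11.7) and at 37179622 to 37179835 in ASTs (214 bp, 13.6). The second lay at 37180253 to 37180494 in NSCs (242 bp, 11.4) and at 37180286 to 37180457 in ASTs (172 bp, 5.57). Both peaks of the pair were of like height in NSCs, whereas in ASTs the second was under the first and had a background 1.5 times the usual.

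Toward the beta side, the alpha stretch ended with a second pair of shared peaks. The first of them lay at 37377038 to 37377433 in NSCs (396 bp, fold enrichment 12.7) and at 37376983 to 37377216 in ASTs (234 bp, 8.36). The second lay at 37377915 to 37378314 in NSCs (400 bp, 13.8) and at 37377954 to 37378205 in ASTs (252 bp, 12.2). Both lists thus showed the same pair arrangement at 2 places of the alpha stretch. Between the pairs, a weak NSC-only peak lay at 37319665 to 37319794 (130 bp, 4.40), on 15 fragments. The only AST-only peak of the interval lay at 37358346 to 37358534 (189 bp). Its fold enrichment of 10.3, on 27 fragments at the usual background, stood above 70.3% of the AST list, and the nearest NSC peak was 18.5 kb away.

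The beta stretch held a row of mostly narrow peaks, which were weak in ASTs and mixed in strength in NSCs. In ASTs all 6 peaks there lay below the list's median fold enrichment, with a median of 6.27 (4.81 to 7.92) against 10.3 for the other 15 AST members. Their median width was 134 bp (129 to 213) against 234 bp, where 129 bp is the narrowest of the whole list. In NSCs the 10 peaks had a median fold enrichment of 7.33 (4.99 to 12.0) against 10.6 for the other 19 members, and a median width of 184 bp (141 to 286) against 230 bp. Of the 10 NSC peaks, 8 were narrower than the list's median, 6 lay below its median fold enrichment and 5 had a −log10 q of at least 10, against 15 of the other 19 for the last measure. Of the 6 AST peaks there, 1 had a −log10 q of at least 10, against 10 of the other 15. Over the whole lists, 64.5% of NSC peaks and 52.8% of AST peaks reached that level. Beta genes resemble each other closely in sequence, and how reads with several matches were treated was not given in the sources used here, which limits these values.

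**Figure D4:**
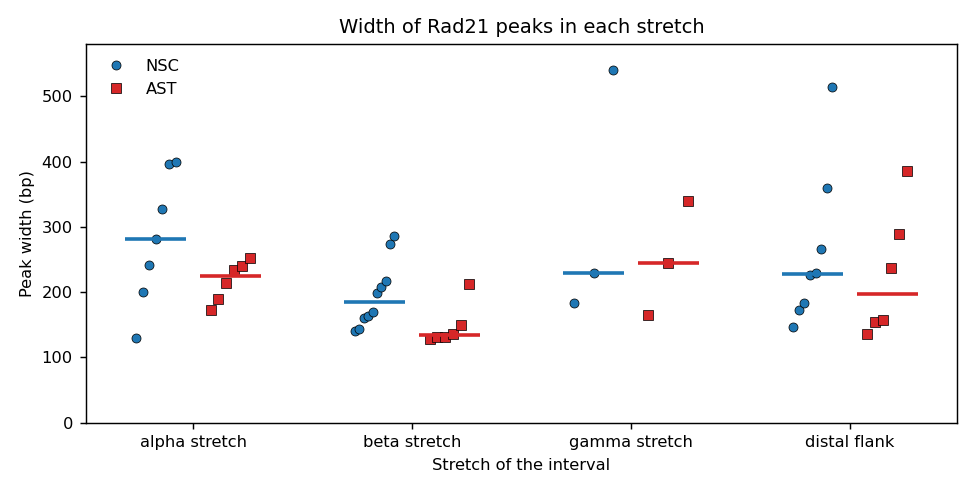
Width in bp (vertical axis) of each NSC (blue circles) and AST (red squares) Rad21 peak in 4 stretches of the interval (horizontal axis), with the median of each group as a bar. The median AST width is 134 bp in the beta stretch against 224, 245 and 198 bp in the alpha and gamma stretches and the distal flank.

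All 6 AST peaks of the beta stretch were shared, and 4 of its 10 NSC peaks were NSC-only. The strongest shared site lay at 37514602 to 37514818 in NSCs (217 bp, fold enrichment 9.97) and at 37514650 to 37514862 in ASTs (213 bp, 7.92). It was followed in NSC strength by the site at 37637232 to 37637505 (274 bp, 9.39), whose AST peak, at 37637329 to 37637464 (136 bp, 6.46), was about as wide as the list's narrowest. The other shared sites began at 37454373, 37560422, 37571195 and 37601889 in NSCs, with fold enrichments of 4.99, 7.04, 4.99 and 4.99. Their AST partners began at 37454352, 37560378, 37571213 and 37601935 and had 6.08, 6.84, 4.81 and 5.70. They rest on 15 to 24 fragments at the summit, and within each list the Poisson intervals of these counts overlap.

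The strongest NSC-only peaks of the whole interval lay in the beta stretch. The first, at 37580940 to 37581138 (199 bp), had a fold enrichment of 12.0 on 41 fragments (29.4 to 55.6), above 69.2% of the NSC list, and lay 9.60 kb from the nearest AST peak. The second, at 37656476 to 37656761 (286 bp), had 11.7 on 40 fragments (28.6 to 54.5) and lay 19.0 kb from the nearest AST peak. Of the 11 NSC members in the third of the 4 bins of fold enrichment, these were the 2 that ASTs lacked. The other 9 were shared, which is near the 80.2% shared among all NSC peaks of that bin. The others were weaker, at 37479867 to 37480074 (208 bp, 7.63) and 37607207 to 37607376 (170 bp, 5.57). That a peak is missing from a list says only that the caller did not report it, and Rad21 may still be bound there below its threshold.

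The gamma stretch held 3 peaks in each list, all beyond its middle. Its density was 1.55 times that of the rest of chromosome 18 in NSCs (0.319 to 4.56) and 1.64 times in ASTs (0.338 to 4.83), and both intervals include 1. Its first peak, at 37879891 to 37880074 (184 bp, fold enrichment 8.21), was NSC-only, 40.9 kb from the nearest AST peak. The widest NSC peak of the interval followed, at 37920947 to 37921486 (540 bp, 12.9), wider than 98.9% of the list. In ASTs the same position was divided into a peak at 37920942 to 37921106 (165 bp, 6.08) and one at 37921211 to 37921455 (245 bp, 11.4). The NSC summit lay 21 bp from that of the second and 307 bp from that of the first. The last site lay at 37965888 to 37966117 in NSCs (230 bp, 8.21) and at 37965884 to 37966223 in ASTs (340 bp, 9.51), and was 1 of only 2 pairs in which the AST peak was the wider. The proximal flank, at the other end, held a single weak NSC-only peak at 36962639 to 36962853 (215 bp, 4.11).

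Summits of overlapping peaks mostly lay close together, though no closer than over the genome. Pairs were chosen by overlap, which by itself keeps the summits of such narrow peaks near each other. Over the 20 overlapping pairs, which involve 19 NSC and 20 AST peaks, the median distance between summits was 24.5 bp (5 to 307), against 19.0 bp over all 12098 pairs of the genome. Summits lay within 50 bp in 16 of 20 pairs (80.0%, against 87.9% over the genome). The NSC peak was the wider in 18 of 20 (90%, against 73.3%). Fold enrichments of partners were ordered alike only in part, with a Spearman correlation of 0.65 over the 20 pairs and 0.52 over all pairs, given as a description. The pairs share their genome position and each list comes from 1 library, so they are not independent replicates.

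**Figure D5:**
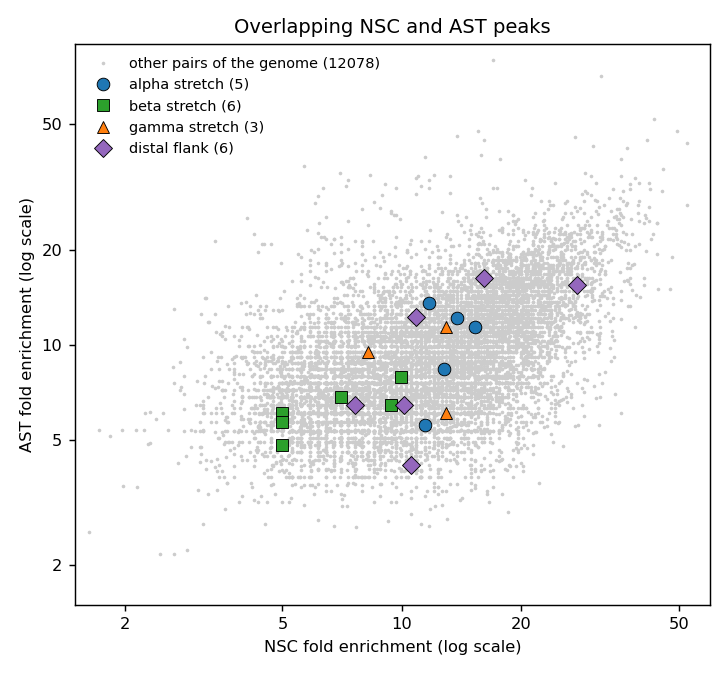
Fold enrichment in NSCs (horizontal axis) and ASTs (vertical axis), both on log scales, of overlapping peaks, with the 20 pairs of the interval as coloured symbols by stretch and the other pairs of the genome as grey points. The 6 beta pairs (green squares) range from 4.99 to 9.97 in NSCs and from 4.81 to 7.92 in ASTs, and the distal flank (purple diamonds) holds the pairs that are highest in NSCs and in ASTs.

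The limits of the interval were not natural breaks in the lists. The last NSC peak before it, at 36899416 to 36899727 (312 bp), lay 0.585 kb outside and had a fold enrichment of 20.2, above all but 1 of the members. The AST peak there, at 36899476 to 36899713 (238 bp), had 8.75. The first members inside lay 62.6 kb from the limit in NSCs and 212 kb in ASTs. On the far side, the last members lay 15.4 kb inside it in both lists, and the first peaks outside it lay 104 kb (NSC, 6.37) and 101 kb (AST, 6.08) beyond. The proximal end of the interval was thus the emptier one, between a shared site just outside and the first alpha site. That outer site was strong in NSCs but near the list median of 7.98 in ASTs.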

How the data were processed

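Reads were processed by the authors. Alignment to mm9 with Bowtie 1.0.0 and peak calling with MACS2 2.0.9 are taken from the tools that the submitters' notes list. Settings, read filters and the q threshold: not given in the sources used here. Deposited lists hold, per peak, start, end and summit, the fold enrichment (a ratio to local background) and, as scores, the p-value and q-value on the −log10 scale. The lowest deposited −log10 q was 1.02 in NSCs and 1.03 in ASTs. Depth per library was not measured here.

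Members were taken by start and printed counting from 1. The members and stretches were chosen with earlier results of these data known. The rule for named peaks was the 8 strongest of each list, the 5 strongest cell-type-only peaks, the ends of the central interval and the longest gap. All other members were given as well, to account for each. Background and fragments were recovered by taking p as the Poisson tail above the pile-up, with a scale of 0.944 in NSCs and 1.00 in ASTs, which gave back −log10 p within 0.05 for 99.99% of peaks in each list. The recovery of fragments at the summit and the calling of overlaps were tested on simulated lists with planted values. The other steps were not tested in this way. Bins by fold enrichment were added after the data had been seen. Software comprised scipy 1.17.1, pandas 2.3.3 and numpy 2.4.6 under Python 3.11.15, and figures were drawn with matplotlib 3.10.9. Base sequence was not analysed here.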

Additional observations from a re-analysis of the deposited data

How the results depend on the processing

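The member counts, shared shares, density ratio of central interval to flanks, shares of windows, median fold enrichments and widths, and median gaps of the central interval were recomputed under other thresholds, overlap rules, limits and window grids, 90 values in all. The other printed values were not. Of these, 84 stayed within the counting interval of the reported value, or within 1.5 times it for counts, and 6 moved beyond it. With peaks kept at −log10 q of 10 or more the AST members fell to 11. The share of genome windows with fewer NSC peaks was 98.1% for −log10 q of 5 or more. For AST peaks it was 96.1% at that threshold, 92.9% for 10 or more, 92.0% with peaks under 1 kb apart merged, and 92.3% with windows of 1 Mb. The density ratio of central interval to flanks depended on the limits, from 0.80 to 1.58 in NSCs and 0.643 to 1.73 in ASTs, and its interval included 1 throughout. The shared share of AST members was 76.2% with reciprocal overlap of at least 0.5. A setting that applied the threshold to 1 list alone was an addition made after seeing the data. No paired analysis was possible because each cell type had 1 Rad21 library.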
